A study of Homo sapiens with 6 samples.

Results

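The metallothionein and zinc homeostasis genes followed here are 9 of the 63677 genes in the count table. They were taken by symbol and not by any measured value, though earlier results of these data were known when the list was made. They are the metallothionein genes *MT2A*, *MT1E*, *MT1F*, *MT1G*, *MT1H*, *MT1M* and *MT1X*, the regulator *MTF1* and the zinc exporter *SLC30A1*. RNA-seq was made from cells labelled LoVo, an established human colorectal cancer line, transfected with siRNA at 25 nM for 48 h. One condition, siRNA_SNHG15, received both siRNAs against the long noncoding RNA *SNHG15*, and the other, SCRAMBLE, received a negative control siRNA. Each condition had 3 libraries, both conditions went through the same transfection, and a single line was used. The question addressed is how the metal-buffering genes stand after *SNHG15* is lowered.

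Metallothioneins are small cytoplasmic proteins that hold zinc, copper and toxic metals such as cadmium through clusters of cysteines. Their genes lie in a row on chromosome 16 and have many processed and unprocessed copies. When free zinc rises, the zinc finger factor *MTF1* binds metal response elements in metallothionein promoters and in that of *SLC30A1*, whose product ZnT1 moves zinc out of the cell. Zinc enters the cytoplasm through ZIP importers, which the SLC39 genes encode, and is moved into vesicles or out of the cell by ZnT transporters, which the SLC30 genes encode. Several metallothioneins also respond to glucocorticoids and to oxidants, so their mRNA is often read as a sensor of metal and stress.

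The libraries held between 3446922 and 10256710 counts, and SCRAMBLE replicate 3 was the shallowest. The cell label was not borne out by all of its markers. Of 9 colorectal epithelial markers, *KRT8*, *KRT18* and *CDX2* were read in every library, from 76 to 493 counts each. *LGALS4* had 0 to 4 counts, and *EPCAM*, *VIL1*, *CDH17*, *KRT20* and *CEACAM5* had 0 or 1 count in each library. LoVo is known for making the *CEACAM5* product. These values were alike in both conditions and in all 6 libraries, so leaving out a library does not bear on them, and the cells are called the libraries labelled LoVo here. Markers of leukocytes and endothelium were at 0 to 2 counts in sum, and those of fibroblasts at 2 to 9. The targeted transcript checked the condition labels. *SNHG15* stood at 290, 277 and 261 CPM (counts per 1000000 counts of the library, with edgeR's TMM factors) in the SCRAMBLE libraries and at 77.2, 83.1 and 87.2 in the siRNA_SNHG15 libraries. Its log2 fold change was -1.74 (SE 0.12, 95% interval -2.0 to -1.48, edgeR adjusted p = 2.62e-05).

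The coding sequences show how alike the family members are. For each of the 7 metallothionein members, the principal annotated transcript with the shortest coding sequence was taken. These coding sequences each have 183 bases before the stop codon, and 20 of their 61 codons encode cysteine. Any 2 of them share between 88.5% and 95.1% of these bases. *MT1E* and *MT1M*, whose values are followed most closely below, differ at 14 bases, as do *MT1E* and *MT2A*. The coding sequences, from GENCODE release 44 on GRCh37, are given from start codon to last codon, with capitals in *MT2A* and *MT1M* at each base that differs from *MT1E*.
MT1E: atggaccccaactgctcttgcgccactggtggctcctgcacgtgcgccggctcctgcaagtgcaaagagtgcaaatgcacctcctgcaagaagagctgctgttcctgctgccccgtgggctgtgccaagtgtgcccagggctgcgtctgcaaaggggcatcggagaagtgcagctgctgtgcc
MT2A: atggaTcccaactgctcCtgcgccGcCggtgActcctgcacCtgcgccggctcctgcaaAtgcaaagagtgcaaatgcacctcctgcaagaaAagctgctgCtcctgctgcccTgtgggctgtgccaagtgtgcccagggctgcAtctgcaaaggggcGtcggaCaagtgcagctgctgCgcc
MT1M: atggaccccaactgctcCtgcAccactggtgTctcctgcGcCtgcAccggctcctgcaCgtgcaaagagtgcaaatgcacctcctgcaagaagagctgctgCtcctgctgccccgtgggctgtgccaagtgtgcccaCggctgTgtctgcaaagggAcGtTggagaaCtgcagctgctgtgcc
The capitals are spread along the length of *MT2A*, while those of *MT1M* lie mostly toward either end, with few in the middle stretch.

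Reads of 75 bases were set against this likeness. In the principal mRNA of *MT2A*, 28.4% of its 75-base windows lay within 2 mismatches of another metallothionein transcript, most often of the processed pseudogene *MT2P1*. The share was 16.3% for *MT1E*, 21.3% for *MT1M*, 22.1% for *MT1X*, 22.3% for *MT1G*, 28.5% for *MT1H* and 1.42% for *MT1F*. Windows identical to another gene's transcript were 0% for *MT2A*, *MT1F* and *MT1M*, 0.794% for *MT1E*, 6.63% for *MT1G* and 10.8% for *MT1H*. They were 36.1% for *MT1X*, in which the overlapping noncoding gene ENSG00000259827 on the same strand is included, and that gene had 0 counts in every library. *MTF1* also overlaps other annotated genes, AL929472.1 on its own strand and a pseudogene on the opposite one. How the counting placed reads that match several genes is not given in the sources used here, so the split of reads among these copies is uncertain for every metallothionein below.

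**Figure D1:**
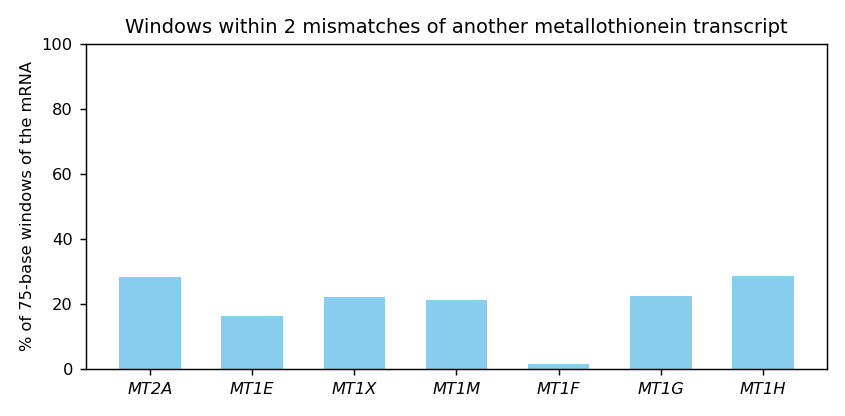
Share of the 75-base windows of each metallothionein member's principal mRNA (vertical axis, percent) that lie within 2 mismatches of another metallothionein transcript. The bars run from 1.42% for *MT1F* to 28.5% for *MT1H*, and *MT1M* stands at 21.3%.

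The promoters of the members show where the letters of the metal response element occur. RefSeq on GRCh38.p14 gave a promoter for 5 of the 9 members, and *MT1E*, *MT1F*, *MT1G* and *MT1M* were not matched. The 250 bases before the start site were searched on both strands for the core letters TGCACNC and TGCGCNC, where N is any base. No matches overlapped in the members. *MT1H* held 8 cores, *MT2A* 7, *MT1X* 4, *SLC30A1* 1 and *MTF1* 0. Of 35116 promoters of this length, 24.8% held at least 1 core, 0.37% at least 4, 0.0313% at least 7 and 0.0171% at least 8. The promoters of *MT2A* (chr16:56608334-56608583, plus strand), *MT1H* (chr16:56669564-56669813, plus strand) and *SLC30A1* (chr1:211579162-211579411, minus strand) are shown because they hold like or unlike numbers of cores at very different levels of mRNA. Each is written in the direction of transcription with the cores in capitals.
MT2A: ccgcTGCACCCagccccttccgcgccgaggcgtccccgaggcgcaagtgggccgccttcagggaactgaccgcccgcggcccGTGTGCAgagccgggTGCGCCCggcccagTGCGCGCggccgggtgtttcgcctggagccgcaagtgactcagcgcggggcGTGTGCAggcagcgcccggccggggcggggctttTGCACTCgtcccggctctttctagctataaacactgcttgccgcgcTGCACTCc
MT1H: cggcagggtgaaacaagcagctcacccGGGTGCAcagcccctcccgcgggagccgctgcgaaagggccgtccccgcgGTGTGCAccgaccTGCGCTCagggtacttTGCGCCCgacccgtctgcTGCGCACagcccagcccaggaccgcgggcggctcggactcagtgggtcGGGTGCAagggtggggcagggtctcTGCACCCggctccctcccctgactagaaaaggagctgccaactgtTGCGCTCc
SLC30A1: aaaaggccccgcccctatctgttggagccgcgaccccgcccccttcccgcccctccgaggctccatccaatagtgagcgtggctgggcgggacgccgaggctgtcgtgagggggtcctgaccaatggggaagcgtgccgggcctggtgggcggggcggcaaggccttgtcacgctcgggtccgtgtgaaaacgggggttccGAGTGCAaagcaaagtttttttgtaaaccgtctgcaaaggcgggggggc
The *MT2A* and *MT1H* windows both end in a core just before the start site and hold others along their length. A match of letters describes the window only and is not a measure of binding.

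Levels of the members spanned the range from among the most read genes to almost none. Each level was given per kilobase of exon, as CPM divided by the merged length of all annotated exons of the gene (RPKM). The SCRAMBLE libraries held *MT2A* at 11324 ± 1399 (SD, n = 3) and *MT1E* at 3856 ± 390. *MT1M* followed at 256 ± 51.7 and *MT1X* at 200 ± 27.8, and in RPKM these neighbours did not differ beyond their spread. Their order turned on the length used. The merged exons of *MT1M* hold 511 bases and those of *MT1X* 1727, while their principal mRNAs have 398 and 404. In CPM, *MT1X* at 346 ± 48.0 stood above *MT1M* at 131 ± 26.4. *SLC30A1* at 3.45 ± 0.504 and *MTF1* at 3.31 ± 0.707 were likewise not apart. *MT1G* at 0.830 ± 0.219, *MT1F* at 0.743 ± 0.274 and *MT1H* at 0.2 ± 0.175 closed the order. In the siRNA_SNHG15 libraries the RPKM order was alike except for neighbours that changed places. *MT1X*, at 194 ± 19.6, stood above *MT1M*, at 177 ± 29.8, and *MT1F* above *MT1G*, at 1.01 ± 0.260 and 0.859 ± 0.517. *MTF1* stood above *SLC30A1*, at 3.49 ± 0.328 and 3.27 ± 0.861. By mean CPM, *MT1X* was above *MT1M*, *MT1F* above *MT1G* and *MTF1* above *SLC30A1* in both conditions. *MT1H*, with 8 cores in its promoter, and *MT2A*, with 7, thus stood at the opposite ends of the RPKM order.

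**Figure D2:**
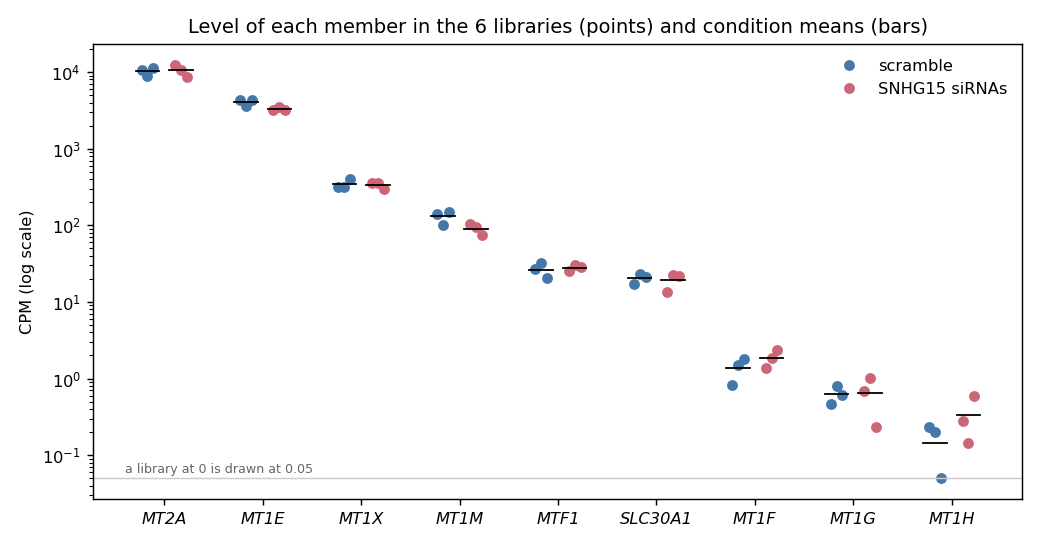
CPM of each member (vertical axis, log scale) in the 3 SCRAMBLE libraries (blue) and the 3 siRNA_SNHG15 libraries (red), with bars at the condition means. *MT2A* lies near 10350 CPM in both conditions, the *MT1E* points of the conditions do not overlap, and *MT1G* and *MT1H* lie at or under about 1 CPM.

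None of the 9 members passed the test, and the summed metallothionein mRNA, called the pool here, was at a similar level in both conditions. The 7 metallothionein members took 1.49%, 1.27% and 1.56% of all counts in the SCRAMBLE libraries, against 1.62%, 1.49% and 1.28% in the siRNA_SNHG15 libraries. That is 1.44% ± 0.152 against 1.46% ± 0.176 (SD, n = 3), and the conditions overlapped. In CPM with TMM factors the sums were 14885 ± 1733 against 14265 ± 2048, so the direction of this small difference depended on the scaling. Of the 9 members, 7 had enough counts to be tested, 0 were called higher and 0 lower at an edgeR adjusted p under 0.05, where 5.36% of all 12507 genes tested were called, 3.13% higher and 2.23% lower. At an unadjusted p under 0.05 the members *MT1E* and *MT1M* passed, 2 of 7, both lower, beside 22.5% of all genes tested. DESeq2 called 1 member, *MT1M*, beside 5.8% of the 13118 genes to which it gave an adjusted p. The median log2 fold change of the 7 was -0.05, against 0.00 over all genes tested. Bulk RNA cannot tell fewer cells expressing a gene from less of its RNA per cell.

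*MT2A* is the family member found in nearly all tissues and the main carrier of the pool here. It lies on chromosome 16 from 56642496 to 56643409 on the plus strand (GRCh37, as are all gene positions below). Its levels were 10688, 8936 and 11425 CPM in the SCRAMBLE libraries, against 12489, 10667 and 8512 CPM in the siRNA_SNHG15 libraries. The siRNA_SNHG15 libraries held both the highest and the lowest value. The means were 10350 ± 1279 and 10556 ± 1991 CPM, with a log2 fold change of 0.03 (SE 0.15, 95% interval -0.29 to 0.34, edgeR adjusted p = 0.931). A change of more than 0.34 in either direction on the log2 scale thus lay outside this interval.

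*MT1E*, a member of the MT1 group that is read here at the next highest level, lies from 56659387 to 56661024 on the plus strand. It stood at 4299, 3583 and 4287 CPM in the SCRAMBLE libraries and at 3183, 3469 and 3191 CPM in the siRNA_SNHG15 libraries. All siRNA_SNHG15 libraries were below all SCRAMBLE libraries, and it was the only 1 of the 7 tested members without overlap, where 28.8% of all genes tested had no overlap and 14.1% had none with siRNA_SNHG15 lower. The means were 4056 ± 410 and 3281 ± 163 CPM. The log2 fold change was -0.31 (SE 0.12, 95% interval -0.56 to -0.05), with an edgeR unadjusted p of 0.0207 and adjusted p of 0.14. The exact permutation test over the 6 libraries gave p = 0.1 (two-sided), the smallest that 3 against 3 can give. Beside it, the 1000 most abundant genes of the table centred on a log2 fold change of -0.12 (median), with 6.1% of them called lower. The part of abundance in the value of *MT1E* was not tested.

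*MT1M*, an MT1 gene of restricted expression that is induced by metals, lies from 56666571 to 56667893 on the plus strand. Its values were 141, 101 and 151 CPM in the SCRAMBLE libraries, against 104, 93.9 and 73.8 CPM in the siRNA_SNHG15 libraries. The conditions overlapped, since the highest siRNA_SNHG15 library stood just above SCRAMBLE replicate 2. The means were 131 ± 26.4 and 90.4 ± 15.2 CPM, a log2 fold change of -0.53 (SE 0.17, 95% interval -0.89 to -0.16), with an edgeR adjusted p of 0.0855. For *MT1M* the exact permutation test gave p = 0.2 (two-sided). DESeq2 gave it an adjusted p of 0.0492, and over all alternatives the adjusted p ran from 0.00526 to 0.25. Without siRNA_SNHG15 replicate 1 the edgeR log2 fold change was -0.63 (adjusted p = 0.0328). With edgeR and all libraries, *MT1M* was also called without the filter on low counts (adjusted p = 0.00526) and with an offset for gene length (adjusted p = 0.0476). *MT1M* is thus a member whose call turns on the tool, the filter, the offset and 1 library, while its estimate was below 0 in every alternative run.

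*MT1X*, another metal-inducible MT1 gene, lies from 56716382 to 56718108 on the plus strand, the last metallothionein gene of the row. It stood at 318, 318 and 402 CPM in the SCRAMBLE libraries and at 356, 353 and 296 CPM in the siRNA_SNHG15 libraries. The ranges overlapped throughout. Its log2 fold change was -0.05 (SE 0.14, 95% interval -0.34 to 0.25, edgeR adjusted p = 0.876).

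*MT1F*, *MT1G* and *MT1H* were near the floor of the data. *MT1F*, from 56691643 to 56694610 on the plus strand, had 7, 15 and 6 counts in SCRAMBLE against 10, 13 and 20 in siRNA_SNHG15. Its log2 fold change of 0.54 had an SE of 0.39 and an interval from -0.31 to 1.39 (edgeR adjusted p = 0.442), so that a rise or a fall was not detectable at this depth. It was 0.24 without SCRAMBLE replicate 1 and 0.33 without siRNA_SNHG15 replicate 3. *MT1G*, from 56700642 to 56701977 on the minus strand, had 4, 8 and 2 counts against 5, 7 and 2, or 14 in sum in each condition. *MT1H*, from 56703726 to 56705041 on the plus strand, had 2, 2 and 0 counts against 2, 1 and 5, with sums of 4 (exact 95% Poisson interval 1.09 to 10.2, counting error only) and 8 (3.45 to 15.8). Neither *MT1G* nor *MT1H* had enough counts to be tested. All 3 genes lie between *MT1M* and *MT1X* on the chromosome, which had at least 499 and 1328 counts in every library.

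**Figure D3:**
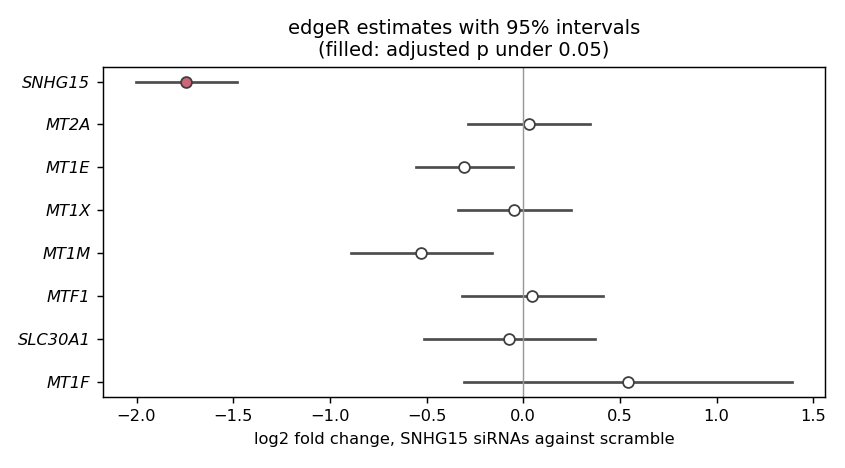
Log2 fold change (horizontal axis, siRNA_SNHG15 against SCRAMBLE) of *SNHG15* and the 7 members tested, as edgeR estimates with 95% intervals. *SNHG15* stands at -1.74, while the intervals of *MT1E* and *MT1M* lie below 0 without an adjusted p under 0.05 and those of the other members cover 0.

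Within each library the metallothioneins were set against one another, which takes out library size and whatever moves them together. The ratio is one of counts and, since the genes differ in length, not of molecules. *MT1M* counts were 1.32%, 1.13% and 1.32% of *MT2A* counts in the SCRAMBLE libraries, against 0.829%, 0.881% and 0.867% in the siRNA_SNHG15 libraries. The conditions did not overlap, at 1.26% ± 0.109 against 0.859% ± 0.0266 (SD, n = 3), and the siRNA_SNHG15 libraries lay close to one another. Of the other genes tested, 5.14% had a ratio to *MT2A* that was lower in every siRNA_SNHG15 library. *MT1E* counts were 40.2%, 40.1% and 37.5% of *MT2A* counts against 25.5%, 32.5% and 37.5%. This too was without overlap, but by less than 0.05 percentage points between the nearest libraries. *MT1X* counts were 2.98%, 3.56% and 3.51% against 2.85%, 3.31% and 3.48%, with overlap. Set against *MT1E* instead, *MT1M* counts were 3.27%, 2.81% and 3.52% against 3.25%, 2.71% and 2.31%, also with overlap.

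**Figure D4:**
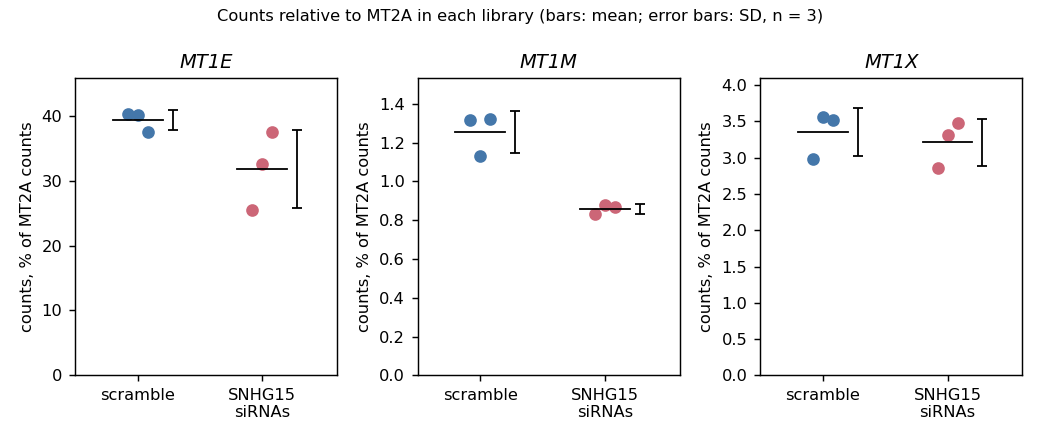
Counts of *MT1E*, *MT1M* and *MT1X* as a percentage of *MT2A* counts in each library (vertical axis from 0, points), with the mean (bar) and SD (error bar, n = 3) of each condition. The *MT1M* ratio lies between 0.829% and 0.881% in the siRNA_SNHG15 libraries and between 1.13% and 1.32% in the SCRAMBLE libraries.

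*MT2A* held a larger share of the pool in every siRNA_SNHG15 library. It made up 69.2%, 69.1% and 70.2% of the counts of the 7 genes in the SCRAMBLE libraries, against 77.4%, 73.1% and 70.5% in the siRNA_SNHG15 libraries. The nearest libraries were 70.2% and 70.5%, and siRNA_SNHG15 replicate 1 stood farthest from the rest. Most of the remainder was *MT1E*, at 27.3% ± 0.816 and 23.3% ± 3.38 (SD, n = 3). The share of *MT2A* thus largely repeats the ratio of *MT1E* to *MT2A* above, and it does not show which of these genes moved. In siRNA_SNHG15 replicate 1, *MT2A* was at its highest level of all 6 libraries, 12489 CPM. Its *MT1E* level of 3182.5 CPM was close to the 3191.3 CPM of siRNA_SNHG15 replicate 3. Between the conditions, *MT2A* had a log2 fold change of 0.03, with an interval from -0.29 to 0.34. Across libraries of the same condition, after the condition means were taken out, *MT2A* and *MT1M* varied together (r = 0.95 over 6 libraries, Pearson), as did *MT2A* and *MT1X* (r = 0.79) and *MT1E* and *MT1M* (r = 0.75). *MT1M* and *MT1X* had r = 0.77, *MT2A* and *MT1E* only 0.51 and *MT1E* and *MT1X* 0.46. *MT1F*, near the floor, ran from r = -0.48 with *MT2A* to 0.15 with *MT1X*. *MTF1* and *MT2A* had r = -0.67 and *SLC30A1* and *MT2A* r = -0.71. These are descriptions of 6 libraries that share reads between family members and scaling factors.

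*MTF1*, the metal-responsive transcription factor, spans positions 38275246 to 38325264 of chromosome 1 (minus strand). Its levels were 27.0, 31.8 and 20.6 CPM in the SCRAMBLE libraries, against 25.0, 30.1 and 28.5 CPM in the siRNA_SNHG15 libraries. The siRNA_SNHG15 values lay inside the SCRAMBLE range. The means were 26.4 ± 5.65 and 27.9 ± 2.62 CPM, a log2 fold change of 0.05 (SE 0.17, 95% interval -0.32 to 0.41, edgeR adjusted p = 0.902). The activity of *MTF1* depends on zinc and on its place in the cell, which counts of its mRNA do not show.

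*SLC30A1*, the zinc exporter of the cell membrane and an *MTF1* target, spans positions 211744910 to 211752503 of chromosome 1 (minus strand). It stood at 17.1, 23.0 and 20.9 CPM in the SCRAMBLE libraries and at 13.4, 22.6 and 21.8 CPM in the siRNA_SNHG15 libraries. siRNA_SNHG15 replicate 1 was the lowest of all 6, and the other libraries of both conditions were mixed. The log2 fold change was -0.07 (SE 0.20, 95% interval -0.51 to 0.37, edgeR adjusted p = 0.87).

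Other copies of the family gave no call with edgeR and all libraries. Of 14 further metallothionein genes and pseudogenes listed, 13 were in the table, 11 had counts and 8 were tested. Of these 8, 0 were called, beside 5.36% of all genes tested. *MT3* and *MT4* had 0 counts in every library. *MT1L*, a transcribed pseudogene and the most read of these, stood at 733, 558 and 855 CPM against 835, 672 and 586 CPM, with a log2 fold change of -0.03 (edgeR adjusted p = 0.928). *MT1DP*, a pseudogene upstream of *MT1F*, had 22, 7 and 1 counts in SCRAMBLE against 28, 21 and 27 in siRNA_SNHG15. Its log2 fold change of 1.30 (SE 0.46) had an unadjusted p of 0.0143 and an edgeR adjusted p of 0.117. Without SCRAMBLE replicate 1 it was 2.47 (adjusted p = 0.0291), and without the filter on low counts *MT1DP* was called too (adjusted p = 0.0135), with adjusted p from 0.0135 to 0.408 over all alternatives. Counts on copies were also set beside those of a member, and the shares ranged widely. *MT1L* had 15.6% to 26.2% of the counts of *MT1E*, *MT2P1* 3.57% to 5.18% of those of *MT2A*, and *MT1XP1* 31.3% to 46.4% of those of *MT1X*.

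The zinc transporters other than *SLC30A1* likewise held 0 calls, higher or lower, among the 15 tested of 23 listed, while 5 of the 15 passed an unadjusted p of 0.05, beside 22.5% of all genes tested. Estimates were above 0 for 8 and below 0 for 7, and the median was 0.07 on the log2 scale. Among the ZIP importers, *SLC39A14*, which takes up zinc, iron and manganese, stood at 173, 194 and 145 CPM in the SCRAMBLE libraries and at 93.6, 127 and 141 CPM in the siRNA_SNHG15 libraries. All siRNA_SNHG15 libraries were lower, with a log2 fold change of -0.51 (SE 0.16, edgeR adjusted p = 0.0847), and DESeq2 gave an adjusted p of 0.0474 (0.00717 to 0.306 over all alternatives). Of the 15 transporters, 2 were lower and 4 higher without overlap, beside 28.8% of all genes tested without overlap, 14.1% with siRNA_SNHG15 lower. *SLC39A13* was at -0.29 on the log2 scale (edgeR adjusted p = 0.209), *SLC39A11* at 0.48 (adjusted p = 0.119) and *SLC39A7*, which releases zinc from the endoplasmic reticulum, at 0.34 (adjusted p = 0.2). *SLC39A1*, the most read importer, was at 366 ± 23.8 and 350 ± 13.5 CPM, a log2 fold change of -0.06.

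Among the other ZnT genes, *SLC30A7*, which loads zinc into the Golgi, stood at 10.7, 8.16 and 10.3 CPM against 12.9, 11.9 and 15.4 CPM. Every siRNA_SNHG15 library was higher, as for 1836 of all 12507 genes tested. The log2 fold change was 0.49 (SE 0.19, edgeR adjusted p = 0.149). *SLC30A5*, which also carries zinc into the early secretory pathway and was the most read of these, was at 49.7 ± 2.95 and 47.7 ± 5.47 CPM (log2 fold change -0.06).

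**Figure D5:**
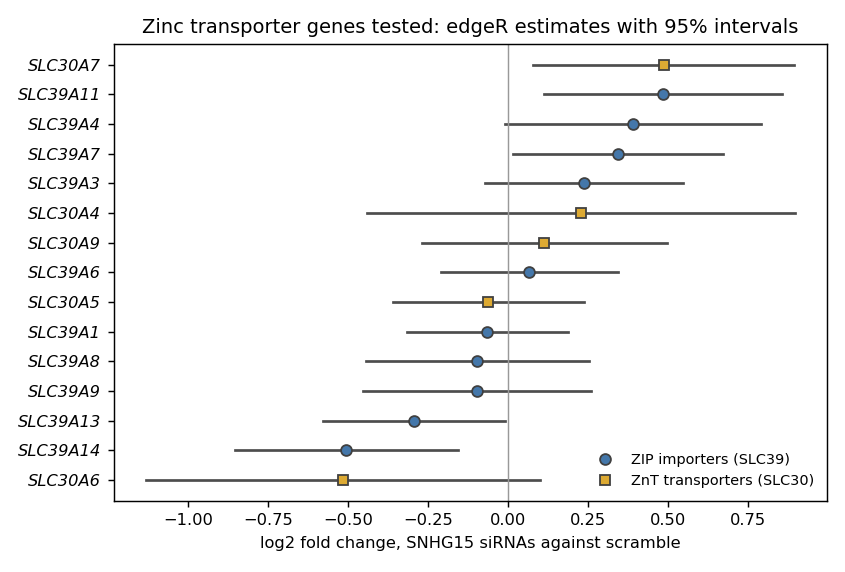
Log2 fold change (horizontal axis) with 95% intervals of the 15 zinc transporter genes tested besides *SLC30A1*, circles for ZIP importers and squares for ZnT transporters. *SLC39A14* at -0.51 and *SLC30A7* at 0.49 are among those whose intervals exclude 0, and none had an adjusted p under 0.05.

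Genes that answer to the same signals as metallothioneins were read beside them. Of 15 copper handling genes listed, 11 were tested and 0 were called, beside 5.36% of all genes tested. At an edgeR unadjusted p under 0.05, 5 of the 11 passed, beside 22.5% of all genes tested. *SOD1*, the copper and zinc superoxide dismutase and the most read of them, was at 740 ± 92.9 and 797 ± 92.7 CPM. *COMMD1*, a factor in copper export, had the smallest p of the list, with a log2 fold change of 0.42 (SE 0.15, edgeR adjusted p = 0.115).

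Of 10 genes of the metal and oxidant stress response, 8 were tested and 1 was called higher, beside 3.13% of all genes tested. *HMOX1*, the heme oxygenase that metals and oxidants induce, was at 330, 292 and 270 CPM in the SCRAMBLE libraries and at 631, 789 and 607 CPM in the siRNA_SNHG15 libraries. It rose by 1.18 on the log2 scale (SE 0.14, edgeR adjusted p = 0.00147). No metallothionein was called, though the interval of *MT1F*, up to 1.39, is wide enough to hold a change of that size. *TXNRD1*, a selenoenzyme of the thioredoxin system and the most read gene of that list by its mean over all 6 libraries, though below *HMOX1* in the siRNA_SNHG15 libraries, was at 592 ± 49.3 and 486 ± 71.6 CPM (log2 fold change -0.28, edgeR adjusted p = 0.234).

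Of 10 glucocorticoid receptor and response genes, 7 were tested and 2 were called, both lower, beside 2.23% of all genes tested called lower. *DUSP1*, a phosphatase of MAP kinases, stood at 59.3, 68.4 and 54.7 CPM against 28.3, 33.8 and 35.7 CPM. It fell by 0.91 on the log2 scale (SE 0.15, edgeR adjusted p = 0.00569). *FKBP5*, a co-chaperone of steroid receptors, fell by 0.52 (SE 0.13, edgeR adjusted p = 0.0372), from 72.4 ± 3.37 to 50.4 ± 5.43 CPM. The call of *FKBP5* was lost without any one of the SCRAMBLE libraries or siRNA_SNHG15 replicate 2, at edgeR adjusted p from 0.0826 to 0.151. It was also lost, just above 0.05, with a filter of 10 counts in every library. The glucocorticoid receptor gene itself, *NR3C1*, had 1 count in SCRAMBLE replicate 1 and 0 in the other 5 libraries. What moved *DUSP1* and *FKBP5* was not tested.

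Genes around the metallothionein row were also read. Within 300 kb of the row, which spans 119124 bp from 56598985 to 56718108, lie 22 other annotated genes. Of these, 6 were tested and 0 called, beside 5.36% of all genes tested. The most read of them, *HERPUD1*, a gene of the endoplasmic reticulum stress response, stood at 178, 226 and 150 CPM against 80.7, 146 and 158 CPM, with a log2 fold change of -0.53 (SE 0.22, edgeR adjusted p = 0.171).

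The genes whose levels followed those of the members most closely were ranked by Pearson correlation of log2 CPM over the 6 libraries, among all tested genes outside the lists. The highest for *MT2A* were *GNB1L* (r = 0.99), the pseudogenes *PSMB3P1* (0.99) and *CCT6P3* (0.98) and the noncoding genes ENSG00000272141 and ENSG00000228150 (both 0.98). Those for *MT1M* were *MCM7* (r = 0.99), a subunit of the replicative helicase, ENSG00000135213 (0.99), *TTC4* (0.98), the exonuclease gene *EXO1* (0.98) and the pseudogene *RPS7P10* (0.98). Each r rests on 6 points and was picked as one of the highest among 12507 genes, so its size alone says little. *MCM7* was at 649 ± 85.0 and 506 ± 69.2 CPM, with a log2 fold change of -0.36 (SE 0.14, edgeR adjusted p = 0.153), so that neither it nor *MT1M* passed the test.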

How the data were processed

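RNA-seq counts were read for 3 SCRAMBLE and 3 siRNA_SNHG15 libraries, with conditions taken from the labels (3 biological replicates per the paper's methods). The authors deposited read counts per Ensembl gene, not normalized, from poly(A)-selected stranded libraries read in pairs of 75 bases. The processing notes name STAR, featureCounts and hg19, with no versions given, while the methods name bowtie2, and the treatment of strand and of multiply placed reads is not given in the sources used here. All 6 columns were assigned, leaving 0 unassigned.

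Counts were analysed in R 4.3.3 with edgeR 4.0.16: filterByExpr (minimum count 10, total 15), TMM factors and the quasi-likelihood test over 12507 of 63677 genes, with Benjamini-Hochberg adjustment and a threshold of 0.05. Alternatives were DESeq2 1.42.0, RLE and upper-quartile factors, other filters, GC and length offsets (loess, span 0.3), a replicate block and leaving out each library. Gene models were GENCODE release 44 on GRCh37, in which 8012 identifiers had no entry. In simulated counts for this comparison, made on 12507 genes with 200 changed by 1 on the log2 scale, edgeR recovered 154 with 11 false calls and DESeq2 144 with 13. The floor was 3 counts per library, and counting intervals cover counting error only. Pairs of libraries of a condition differed by at least 4.18 in chi-square per degree of freedom, so none was counted as a duplicate.

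The members and lists were chosen with earlier results of these data known. Named genes were all members, every called gene of each list or else that with the smallest p, the most read gene of each list and of the neighbourhood, and the 5 genes most correlated with *MT2A* and with *MT1M*. Besides these, further transporters with an unadjusted p under 0.05, *MT2P1*, *MT1XP1*, *MT3*, *MT4* and *NR3C1* were named after their values were seen.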

Additional observations from a re-analysis of the deposited data

How the results depend on the processing

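The count of members called, 0 with edgeR and all libraries, became 1 with DESeq2, without a filter on low counts and with the length offset, and lay between 0 and 1 when a library was left out. *MT1M* was the gene each time, and the library was siRNA_SNHG15 replicate 1. The count of other zinc transporters called became 1 (*SLC39A14*) with DESeq2 and without the filter. Estimates near 0 changed sign. *MT2A* was at -0.029 with the length offset, and *MT1L* at 0.0004 with upper-quartile factors. Leaving out 1 library moved *MT2A* between -0.11 and 0.17, *MT1X* between -0.10 and 0.068, *MTF1* between -0.083 and 0.21, *SLC30A1* between -0.19 and 0.13, *MT1L* between -0.18 and 0.11 and *SLC30A5* between -0.14 and 0.019. Without *MT2A* the difference in the summed CPM of the family moved from -0.06 to -0.29 on the log2 scale. *MT1E* kept its sign and stayed above the threshold in all 16 alternatives, from -0.38 to -0.26. *SNHG15* stayed called in 15 of 15, from -1.78 to -1.70, and *HMOX1* and *DUSP1* in 16 of 16. *MT1F* lay between 0.24 and 0.73, and *MT1DP* between 0.87 and 2.47, when a library was left out.

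Deviations of same-numbered libraries from their condition means had r = -0.07, 0.17 and -0.05 over genes. Libraries of unlike number were not compared and the labels do not state pairing. These values therefore cannot decide whether the numbers pair the libraries. With the replicate block 543 of all genes were called in place of 671, and 808 with the block and the GC offset. In both, 0 members and 0 other zinc transporters were called, and *MT1M* had adjusted p of 0.123 and 0.0766. The call of *FKBP5* was lost with the block alone (adjusted p = 0.0699). Over all genes, calls ran from 139 to 812 when a library was left out (139 without SCRAMBLE replicate 2, 812 without siRNA_SNHG15 replicate 1), were 965 with the GC offset and were 1312 without the filter. Depth limited *MT1F*, *MT1G* and *MT1H*.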
